A study of Mus musculus with 44 samples.

Results

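DNA methylation of the hippocampus was set against that of the libraries labelled whole blood in saline-injected mice, over the cytosines that could be read in both tissues. The comparison used 3 hippocampus and 4 blood libraries of the 44 libraries in the series. It covered 1083443 cytosines, out of 1380165 in the hippocampus table and 1201496 in the blood table taken 6 h after the injection, each cytosine being identified by chromosome, position and strand. All groups were adult male wild type C57BL/6J mice, 8 to 12 weeks old when obtained, that had gone through a model of Gulf War Illness. They drank corticosterone (CORT, the main glucocorticoid of rodents) at 200 mg/L in 0.6% ethanol for 7 days, were injected on day 8 with 4 mg/kg diisopropyl fluorophosphate (DFP, which blocks acetylcholinesterase for good), and had further courses of CORT up to 5 weeks before the saline injection. No group without CORT and DFP entered the comparison, so every value below is that of exposed mice. The labels do not say which libraries came from separate mice, nor which blood and hippocampus came from the same mouse, and p-values can speak only of the spread among these libraries.

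Methyl groups are placed on the cytosines of CpG pairs by DNA methyltransferases and removed by way of the TET enzymes, and their pattern is set during differentiation and passed on at cell division. Starts of widely used genes lie in CpG-rich islands that stay unmethylated in nearly all cells, whereas gene bodies, distal enhancers and the starts of lineage genes are often methylated in one cell type and free of methylation in another. Blood leukocytes arise from haematopoietic stem cells and the hippocampus is built mainly of neurons, astrocytes, oligodendrocytes and microglia, the last of which share a myeloid programme with blood monocytes. Reduced representation bisulfite sequencing (RRBS) cuts genomic DNA at CCGG with the enzyme MspI and so samples CpG-rich sequence, and bisulfite cannot tell 5-methylcytosine from 5-hydroxymethylcytosine, which is common in neurons. Both tissues are mixtures of cell types, so a smaller share of cells with methylated copies and a lower methylation per cell cannot be told apart.

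The labels were checked first, at genes that define the 2 tissues. Spi1 (PU.1, the transcription factor of myeloid and B cells) had gene mean methylation of 72.1%, 67.3% and 73.1% in the hippocampus libraries and 69.4%, 72.3%, 62.7% and 62.3% in the libraries labelled blood, over 7 cytosines. The groups overlapped and the difference of 4.16 points (SE 2.81) was not called (limma, adjusted p = 0.25). The 4 libraries labelled blood of mice given lipopolysaccharide (LPS, 0.5 mg/kg) and also taken at 6 h, which enter no test here, read 2.87%, 11.5%, 2.67% and 6.57% at the same cytosines. Cebpe, a factor of granulocyte maturation, read 83.5% ± 0.819 (SD, n = 3) in hippocampus, 60.4% ± 7.85 (SD, n = 4) in labelled saline blood and 17.0% ± 8.96 (SD, n = 4) in labelled LPS blood. Cd79b, a subunit of the B cell receptor, read 72.0% ± 7.00, 25.3% ± 2.90 and 5.87% ± 3.09 in the same order. Of the 26 pan-leukocyte genes 23 were measured, of which 3 were higher and 2 lower in hippocampus (limma, adjusted p under 0.05 and at least 10 points), beside 4.96% and 5.44% of all genes tested. Their tiles of 1000 bp had a median of 82.0% in hippocampus and 80.4% in labelled saline blood, and 12.3% of these tiles were higher and 6.15% lower in hippocampus by at least 25 points, beside 5.6% and 9.33% of all tiles tested. The libraries labelled saline blood therefore did not have the low methylation at Spi1 that labelled LPS blood had, and they are called the libraries labelled blood, or labelled blood, from here on.

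A pair of keratin genes, picked after their values were seen, was low in labelled saline blood. Krt5, a keratin of basal epithelial cells, read 78.0%, 80.4% and 83.3% in hippocampus and 38.7%, 35.3%, 37.7% and 33.1% in labelled blood over 10 cytosines. Cortex was at 85.5% ± 1.25 (SD, n = 4) and labelled LPS blood at 75.4% ± 5.63 (SD, n = 4). Krt15, another basal keratin, read 91.5% ± 2.16 in hippocampus, 42.1% ± 2.86 in labelled blood, 89.9% ± 1.60 in cortex and 88.2% ± 3.02 in labelled LPS blood. Labelled saline blood was the lowest of the 4 groups at both keratins, with no overlap. The epithelial list given further on, which includes both keratins, holds 6 genes called higher in hippocampus, 2 called lower (Lamb3 and Evpl) and 22 not called. Which cells these libraries were made from, and their part in the results below, was not tested. On the hippocampal side, Camk2a, the calcium/calmodulin kinase subunit of excitatory neurons, read 42.9% ± 0.0565 against 66.8% ± 0.988 in labelled blood. Prox1, a transcription factor of dentate granule cells, read 15.0% ± 0.832 in hippocampus, 24.9% ± 1.11 in frontal cortex and 28.7% ± 0.575 in labelled blood. Syn1, a synapsin gene, went the other way, at 30.5% ± 5.04 against 12.1% ± 1.25. Of 30 neuronal and synaptic genes tested 3 were lower, 1 higher and 26 not called. Among 16 hippocampal and forebrain factors tested, 1 was lower and 15 were not called. The shares over all genes tested were 5.44% lower and 4.96% higher.

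**Figure D1:**
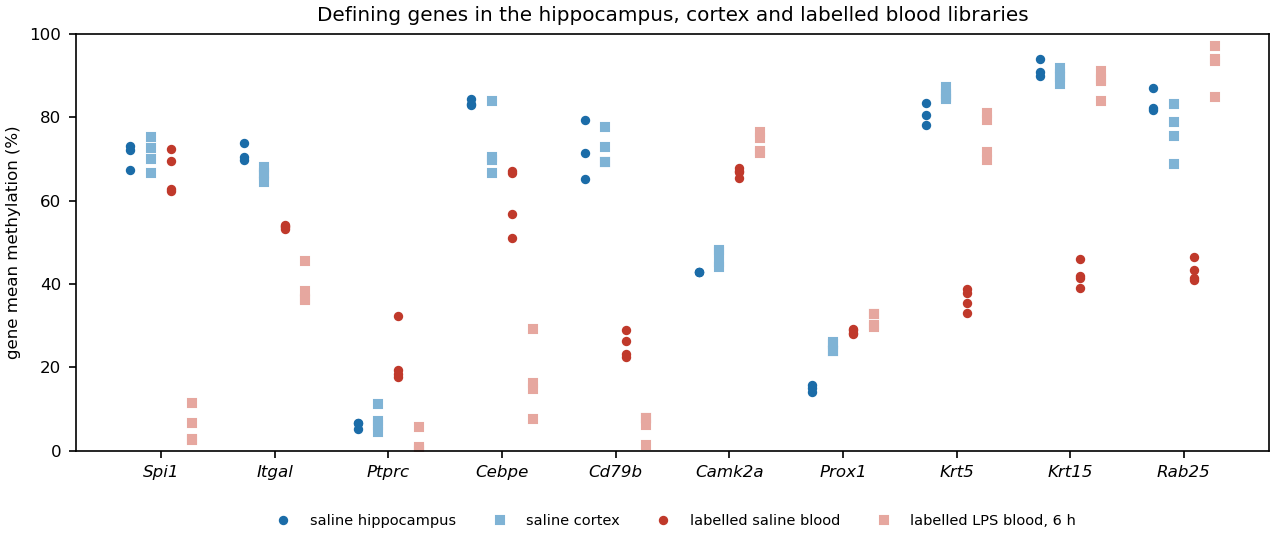
Gene mean methylation (%) of 10 defining genes in each library of saline hippocampus (n = 3), saline cortex (n = 4), labelled saline blood (n = 4) and labelled LPS blood at 6 h (n = 4). At Spi1 labelled saline blood lies between 62.3% and 72.3%, overlapping the hippocampus libraries in 2 of its 4 libraries and far above labelled LPS blood in all 4, and at Krt5, Krt15 and Rab25 it lies below the other 3 groups.

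A pair of the libraries labelled blood stood apart for another reason. Replicates 2 and 3 exceeded the mean of replicates 1 and 4 by over 50 points at 2218 cytosines, 0.205% of those shared, and only 1 cytosine did the reverse. At those cytosines replicates 2 and 3 averaged 89.9% and 90.2%, against 3.86% and 3.91% in replicates 1 and 4 and 3.92% to 4.32% in the hippocampus libraries. Of the 2218 cytosines, 415 lay inside a stretch whose reference sequence was at hand, and all 415 were in CCGG, compared with 15.1% of the 142435 shared cytosines in such stretches. The counts below are therefore also given without replicates 2 and 3. Across all shared cytosines, Pearson's r between libraries was 0.984 to 0.987 within hippocampus, 0.981 to 0.988 within labelled blood and 0.937 to 0.946 between the tissues, as a description over sites that share libraries.

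Taken over all shared cytosines the tissues had nearly the same mean methylation. The hippocampus libraries averaged 28.6%, 28.4% and 28.6%, and the libraries labelled blood 29.2%, 29.5%, 29.5% and 29.1%. Hippocampus was the lower by 0.765 points with no overlap. The share of cytosines under 20% was 64.2% ± 0.142 in hippocampus and 62.9% ± 0.317 in labelled blood, and the share from 20 to 80% was 14.2% ± 0.120 against 15.3% ± 0.263. The share over 80% overlapped between groups, at 21.6% ± 0.261 and 21.8% ± 0.131. Fixed tiles of 1000 bp with at least 3 shared cytosines gave a median level of 65.5% ± 0.850 in hippocampus and 68.9% ± 0.254 in labelled blood on the autosomes, and 33.6% ± 2.67 against 42.3% ± 1.74 on the X chromosome. The Y chromosome went the opposite way. Its 617 shared cytosines averaged 85.3% ± 0.362 in hippocampus and 70.1% ± 0.189 in labelled blood. With 3 and 4 libraries the smallest p of an exact two-sided permutation test is 0.0571, so the design cannot reach 0.05 for such single values. Of the 7 measures, 6 reached it (0.0667 after Benjamini-Hochberg adjustment over the 7), and the share over 80% had an exact permutation p of 0.229.

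Most tiles were in the same state in both tissues. Of the 85111 tiles measured, 30.0% were under 20% in both, 34.3% were over 80% in both and 18.7% lay between in both. Only 64 tiles were under 20% in hippocampus and over 80% in labelled blood, and 14 were the reverse. Partial shifts were far more frequent, with 5307 tiles at 20 to 80% in hippocampus and over 80% in labelled blood, and 5581 tiles over 80% in hippocampus and at 20 to 80% in labelled blood.

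Past 25 points more tiles were lower in hippocampus than higher, although the median tile was slightly higher there. Over the 58025 tiles with a level from 5 to 95% the median difference was 0.722 points. Of these tiles 5413 (9.33%) were lower in hippocampus and 3249 (5.6%) higher, counting those past 25 points with an adjusted p under 0.05 in limma. Without replicates 2 and 3 of labelled blood the counts were 5418 and 3265. The groups did not overlap in 5408 of the lower and 3245 of the higher tiles, which the 25 point rule nearly fixes in advance. The share without overlap over all tested tiles was not taken. At least 50 points separated the groups in 829 of the lower and 311 of the higher tiles. Among 388302 single cytosines in that range, 43153 (11.1%) were lower and 26908 (6.93%) higher in hippocampus by the same rule, and 43458 and 27815 without replicates 2 and 3. The median spread between libraries of a tile was 2.74 points (SD, n = 3) in hippocampus and 2.80 points (SD, n = 4) in labelled blood.

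The called tiles were also read in cortex and in labelled LPS blood. The tiles lower in hippocampus had a median of 35.5% there, 76.7% in labelled blood, 43.5% in saline cortex and 85.8% in labelled LPS blood. The tiles higher in hippocampus had a median of 80.1% there, 41.0% in labelled blood, 78.5% in cortex and 77.9% in labelled LPS blood. Cortex was thus near hippocampus in both sets. Labelled LPS blood was near labelled saline blood in the first set and near hippocampus in the second. Over all tested tiles the medians were 80.7% in hippocampus, 80.3% in labelled blood, 80.5% in cortex and 85.8% in labelled LPS blood. Tiles entered both sets by their hippocampus and labelled saline blood values. Where cortex and labelled LPS blood lie relative to those is therefore partly set by that choice.

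**Figure D2:**
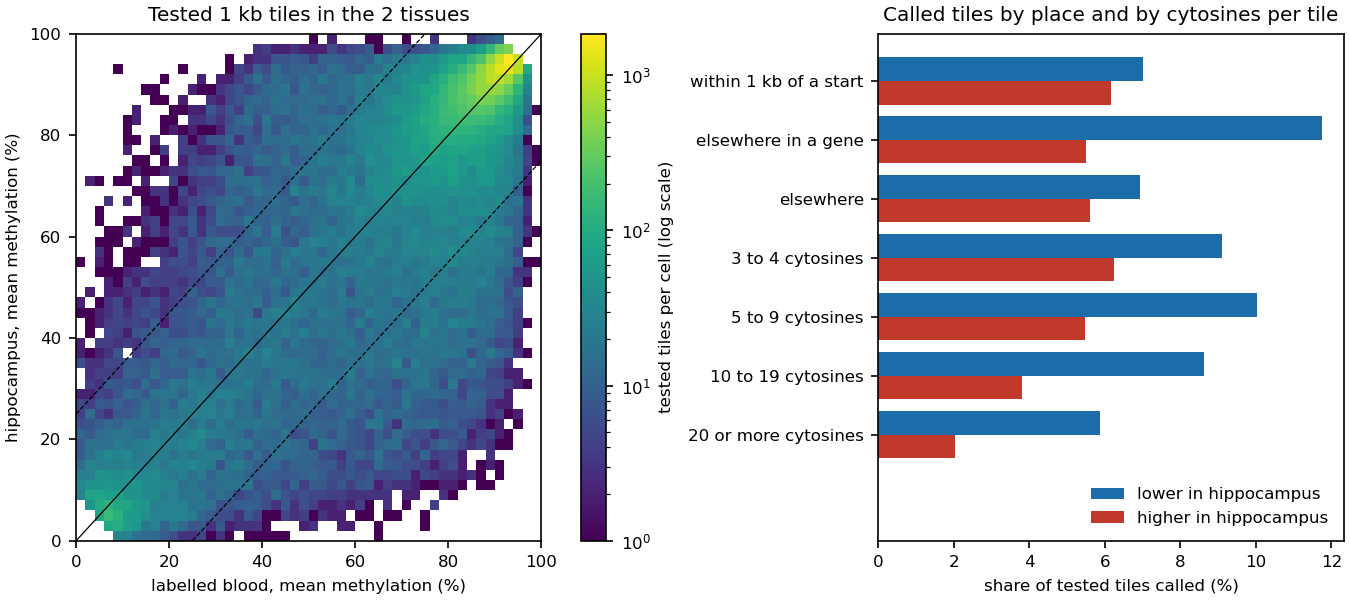
Left, mean methylation (%) of the 58025 tested tiles in labelled blood and in hippocampus, coloured by the number of tiles on a log scale, with the diagonal and lines at 25 points from it. Right, bars of the share (%) of tested tiles called higher or lower in hippocampus, by place (without chromosome 18) and by the number of cytosines in the tile. Tiles gather at both ends of the diagonal, and lower calls reach 11.7% inside genes away from their starts.

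The share of called tiles varied with their place and with the number of cytosines they held, as a description with no test. Away from gene starts but inside protein-coding genes, 11.7% of 27154 tiles were lower and 5.49% higher in hippocampus. Within 1 kb of an annotated start the shares were 7.01% and 6.15% of 4650 tiles, and elsewhere 6.93% and 5.59% of 24417 tiles, chromosome 18 being left out of this split. Tiles holding 3 to 4 cytosines were lower in 9.09% and higher in 6.24%, and those with 20 or more in 5.88% and 2.03%. By chromosome the share of lower tiles ran from 7.06% on chromosome 3 to 11.5% on chromosome 18 among the autosomes. It was 5.81% on the X chromosome, and on the Y chromosome 5 of 94 tiles were higher and none was lower.

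The 12 named tiles farthest below labelled blood are described first, which by the rule that chose them lie in 12 different protein-coding genes (positions are in GRCm38/mm10). A tile in Ptpn3, a protein tyrosine phosphatase gene (chr4:57206000-57206999), read 17.5%, 16.1% and 12.4% in hippocampus and 88.8%, 94.0%, 91.7% and 86.4% in labelled blood over 5 cytosines. The difference was -74.9 points (SE 3.13, adjusted p = 5.1e-08), and cortex was at 31.5%. Tiles in Zfp521 (a zinc-finger cofactor of progenitor cells, chromosome 18) and Ebf3 (a transcription factor of neuronal development, chromosome 7) differed by -74.0 and -73.1 points. The lowest labelled blood library of both tiles was at 87.3% and the highest hippocampus library at 22.1%. In Tuba1a, the alpha-tubulin of young neurons (chr15:98951000-98951999), hippocampus read 12.8%, 32.4% and 8.54%, so replicate 2 was the high library, and labelled blood read 92.9%, 84.5%, 92.8% and 87.0%. Tcf4, a bHLH factor of neuronal differentiation, had a tile over 9 cytosines at 6.62% ± 2.19 in hippocampus, 10.8% in cortex and 77.9% ± 2.73 in labelled blood.

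The remaining tiles of that set differed by -71.3 to -69.3 points. Galnt18 (a glycosyltransferase gene) stood at 20.7% ± 2.64 against 92.0% ± 0.686 in labelled blood. A tile with 13 cytosines that Hoxa3 and Hoxa5 share (chr6:52200000-52200999) stood at 9.36% ± 1.56 against 79.9% ± 1.37, and cortex was at 6.82%. Smarcd1, a subunit of the BAF chromatin remodeller, stood at 8.32% ± 1.66 against 78.7% ± 3.47. In these 3 tiles no library of one group came within 50 points of the other group. Zmynd11 (a reader of methylated histone H3.3), Enc1 (an actin-binding kelch protein of nervous tissue), Vxn (vexin, a neurogenesis gene) and Abhd2 (a lipase) completed the set, with hippocampus between 10.9% and 25.5%.

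The 12 named tiles farthest above labelled blood, chosen in the same way, differed in their level in labelled LPS blood. A tile in Tnfsf4, which encodes the OX40 ligand of T cell costimulation (chr1:161395000-161395999), read 80.3%, 84.3% and 79.8% in hippocampus and 10.8%, 7.38%, 11.7% and 13.6% in labelled blood. The difference was 70.6 points (SE 2.77, adjusted p = 5.1e-08), with cortex at 81.8% and labelled LPS blood at 3.39%. Wwox, an oxidoreductase with WW domains, had a tile at 90.1% ± 0.758 against 19.8% ± 4.12, with labelled LPS blood at 11.8%. Lima1 (an actin-binding protein, 66.3% against 7.69%) and Gcnt1 (an enzyme of O-glycan branching, 88.4% against 31.7%) were also low in labelled LPS blood, at 2.57% and 7.83%. These 4 tiles were low in both sets of labelled blood libraries.

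All the other tiles of this set were low in labelled saline blood, and all but Dgkg were higher in labelled LPS blood. At Capn1, the calpain-1 catalytic subunit (chr19:6014000-6014999), hippocampus read 90.3%, 93.1% and 86.6% and labelled blood 24.1%, 30.7%, 24.5% and 27.6%, while cortex was at 94.9% and labelled LPS blood at 84.5%. Uqcrc1 (a core protein of respiratory complex III), Eps8l2 (an actin regulator), Ano6 (a phospholipid scramblase) and Pde11a (a cyclic nucleotide phosphodiesterase) had labelled LPS blood at 80.9% to 89.7%. In the tiles of Tiam1, a Rac exchange factor, and Padi1, a peptidylarginine deiminase of epidermis, which held the annotated starts, labelled LPS blood was between, at 41.3% and 54.0%. Dgkg, a diacylglycerol kinase, was low in both sets of labelled blood as well, at 18.3% in saline and 18.9% in LPS. It read 76.7% in hippocampus and 61.6% in cortex. All 24 tiles kept their call in every alternative fit run on them. They were chosen for the largest differences, far past the 25 point limit, so this was nearly fixed in advance.

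**Figure D3:**
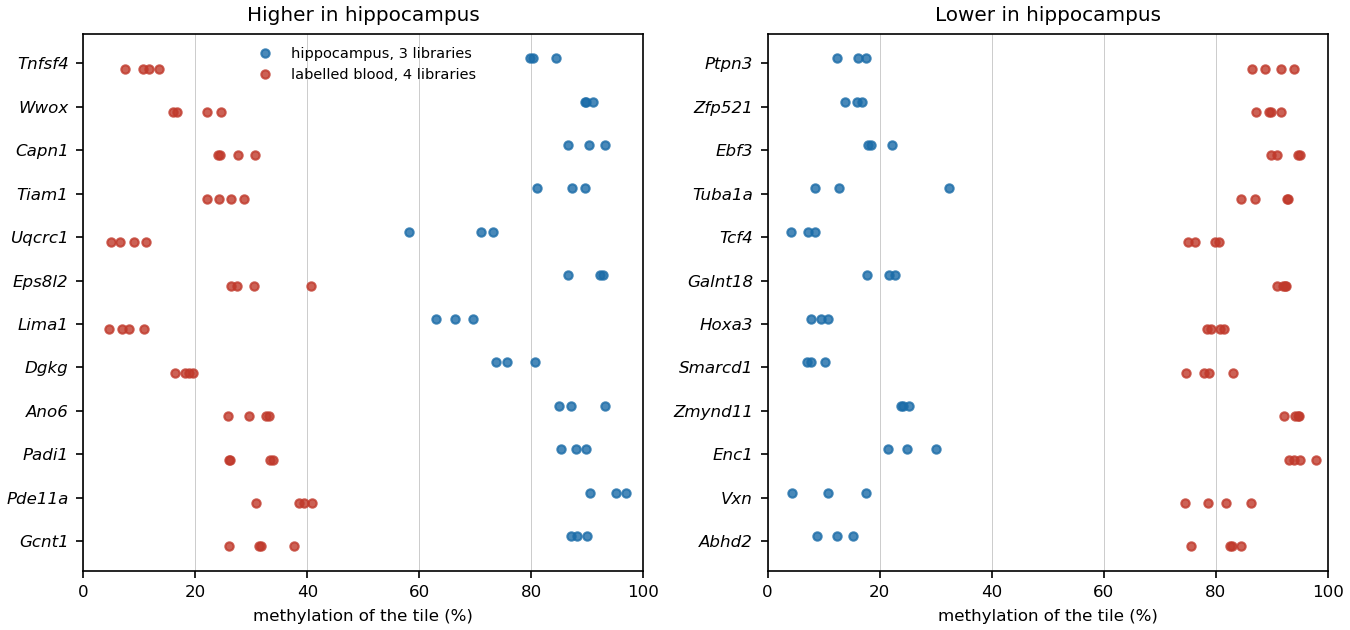
Methylation (%) of the 12 named tiles in each direction, 1 point per library (3 of hippocampus, 4 of labelled blood). The groups do not overlap in any of the 24 tiles, by the rule that chose them, and hippocampus replicate 2 stands out at Tuba1a.

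Runs joined measured tiles within 3000 bp that were called in the same direction, and most held a single tile. How many measured tiles have a measured neighbour was not counted, so isolated calls and sparse sampling cannot be told apart. Of 5103 runs of neighbouring lower tiles 4817 held a single tile and 22 held 3 or more, and of 3092 runs of higher tiles 2953 were single and 15 held 3 or more. The longest run was 5 higher tiles over 11 kb in Dnmbp, a Cdc42 exchange factor (chr19:43886000-43896999), whose means were 85.5%, 86.0% and 90.5% in hippocampus and 45.7%, 47.2%, 44.3% and 40.4% in labelled blood. A run of 4 higher tiles covered Fes, a tyrosine kinase of myeloid cells, and the neighbouring Furin (chr7:80386000-80390999), at 53.2% ± 0.935 against 21.7% ± 0.882, and labelled LPS blood was at 19.8%. A run of 3 higher tiles on chromosome 5, 1525 bp from Sppl3, stood at 91.4% against 49.4%. Other runs of 3 tiles were equally long.

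The longest runs of lower tiles lay in or beside Pnoc, Irx3, Gnao1 and Coro2b. Pnoc, the precursor of the neuropeptide nociceptin (chr14:65403000-65406999), had 4 tiles at 34.9% ± 1.47 in hippocampus and 73.6% ± 1.43 in labelled blood, with cortex at 45.01%. A second run of 4 tiles, with 53 cytosines, lay 1346 bp from the homeobox gene Irx3 (chr8:91803000-91806999). It read 8.58%, 6.49% and 10.4% in hippocampus, 41.6%, 47.1%, 44.2% and 43.5% in labelled blood, 5.51% in cortex and 10.1% in labelled LPS blood, so labelled saline blood was the high group there. Gnao1, the G protein alpha subunit most abundant in brain, had 3 tiles at 30.7% ± 1.005 against 73.3% ± 1.97, and Coro2b, a coronin of nervous tissue, had a run of the same number and length at 30.4% against 76.6%.

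Annotated gene starts were then compared as features of their own. Of 1793 annotated starts with at least 3 shared cytosines within 1000 bp and a level from 5 to 95%, 97 (5.41%) were higher and 79 (4.41%) lower in hippocampus by 25 points or more, and 91 and 78 without replicates 2 and 3 of labelled blood. Another 10043 starts were measured and lay outside that level range. For 34 called starts of protein-coding genes (25 higher and 9 lower, leaving out genes with placeholder names) at least 3 cytosines lay in the 250 bases before the start.

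Of these, 7 are printed because they show where the measured cytosines sit: those with the largest differences in each direction, and 3 from the gene lists, chosen after their values were seen. The sequences are from RefSeq (GRCm38.p6), 5′ to 3′ toward the start, and capitals mark each measured cytosine, a G standing for the cytosine opposite. They are Igf2r (chr17:12769707-12769956, minus strand), Frmd7 (chrX:50942770-50943019, minus), Tbc1d22a (chr15:86277425-86277674, plus), Slc26a9 (chr1:131743772-131744021, plus), Fcgbp (chr7:28070986-28071235, plus), Itga3 (chr11:95069199-95069448, minus) and Ltb (chr17:35194257-35194506, plus).
Igf2r: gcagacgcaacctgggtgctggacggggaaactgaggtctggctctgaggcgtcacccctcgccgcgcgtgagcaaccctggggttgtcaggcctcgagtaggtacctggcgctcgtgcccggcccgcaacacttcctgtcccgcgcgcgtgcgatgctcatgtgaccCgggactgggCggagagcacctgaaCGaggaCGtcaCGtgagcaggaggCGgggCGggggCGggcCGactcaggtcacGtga
Frmd7: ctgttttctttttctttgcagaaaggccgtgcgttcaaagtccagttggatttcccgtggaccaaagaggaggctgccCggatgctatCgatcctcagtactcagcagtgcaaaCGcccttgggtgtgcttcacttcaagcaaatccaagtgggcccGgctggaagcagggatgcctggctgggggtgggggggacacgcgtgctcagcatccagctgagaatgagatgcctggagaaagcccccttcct
Tbc1d22a: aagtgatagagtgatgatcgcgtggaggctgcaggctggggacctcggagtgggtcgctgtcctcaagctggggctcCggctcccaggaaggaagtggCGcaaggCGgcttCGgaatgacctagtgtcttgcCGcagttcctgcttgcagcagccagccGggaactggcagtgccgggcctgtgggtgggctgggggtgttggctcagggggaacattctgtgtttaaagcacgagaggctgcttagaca
Slc26a9: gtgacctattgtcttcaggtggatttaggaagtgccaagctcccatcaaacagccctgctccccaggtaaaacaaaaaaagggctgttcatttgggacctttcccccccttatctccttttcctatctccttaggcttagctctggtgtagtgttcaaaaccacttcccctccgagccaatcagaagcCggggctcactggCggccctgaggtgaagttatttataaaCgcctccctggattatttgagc
Fcgbp: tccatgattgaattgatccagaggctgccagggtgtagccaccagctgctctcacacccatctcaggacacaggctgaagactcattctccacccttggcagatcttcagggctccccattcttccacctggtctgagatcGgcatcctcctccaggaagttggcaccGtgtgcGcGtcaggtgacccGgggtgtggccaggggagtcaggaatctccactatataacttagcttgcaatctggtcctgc
Itga3: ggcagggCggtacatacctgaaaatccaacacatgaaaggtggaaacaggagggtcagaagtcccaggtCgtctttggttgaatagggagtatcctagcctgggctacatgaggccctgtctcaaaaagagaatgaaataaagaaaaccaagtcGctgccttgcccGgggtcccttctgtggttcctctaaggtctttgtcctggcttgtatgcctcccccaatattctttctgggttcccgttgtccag
Ltb: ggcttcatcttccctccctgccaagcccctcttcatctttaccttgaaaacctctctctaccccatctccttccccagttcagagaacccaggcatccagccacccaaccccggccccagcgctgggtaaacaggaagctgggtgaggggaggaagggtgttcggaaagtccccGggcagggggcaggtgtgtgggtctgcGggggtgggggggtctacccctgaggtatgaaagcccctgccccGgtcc

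Igf2r, the receptor that clears insulin-like growth factor 2, is an imprinted gene, expressed from the maternal copy in most tissues and from both copies in neurons. Its stretch holds 27 CpGs, and the 17 cytosines measured in it averaged 3.496%, 3.33% and 7.94% in hippocampus and 41.9%, 38.3%, 42.5% and 44.5% in labelled blood. Over all 30 cytosines within 1000 bp of the start the difference was -31.8 points (SE 1.69, adjusted p = 3.0e-06). Cortex read 3.28% and labelled LPS blood 36.5% in the printed stretch, so both brain regions were near zero and both sets of labelled blood were intermediate. Frmd7, a FERM-domain gene on the X chromosome, read 31.1%, 19.9% and 19.02% in hippocampus and 81.5%, 69.6%, 74.2% and 66.8% in labelled blood at its 5 capitals. Tbc1d22a, a gene of a Rab GTPase-activating domain, read 16.0% ± 0.423 against 65.5% ± 7.63 over 10 cytosines, with labelled LPS blood at 26.4%.

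The other 4 printed starts were higher in hippocampus. Slc26a9, an epithelial anion transporter, read 78.6%, 76.6% and 90.4% in hippocampus and 18.04%, 27.8%, 8.67% and 28.1% in labelled blood at its 3 capitals. Fcgbp, a mucus protein that binds the Fc part of IgG, read 87.6% ± 4.90 against 36.8% ± 11.3, with labelled LPS blood at 86.3%. Itga3, the alpha subunit of a laminin-binding integrin of epithelium, read 86.9%, 89.6% and 87.5% in hippocampus and 50.2%, 49.4%, 42.0% and 46.6% in labelled blood, with labelled LPS blood at 85.0%. At Ltb, which encodes lymphotoxin beta of lymphocytes, hippocampus was at 62.4% ± 2.82, labelled blood at 36.5% ± 6.56 and labelled LPS blood at 11.9%. Its difference of 25.9 points lay just past the 25 point limit. It was 24.6 points without hippocampus replicate 1, 22.7 without replicate 1 of labelled blood and 22.4 without replicates 1 and 4.

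**Figure D4:**
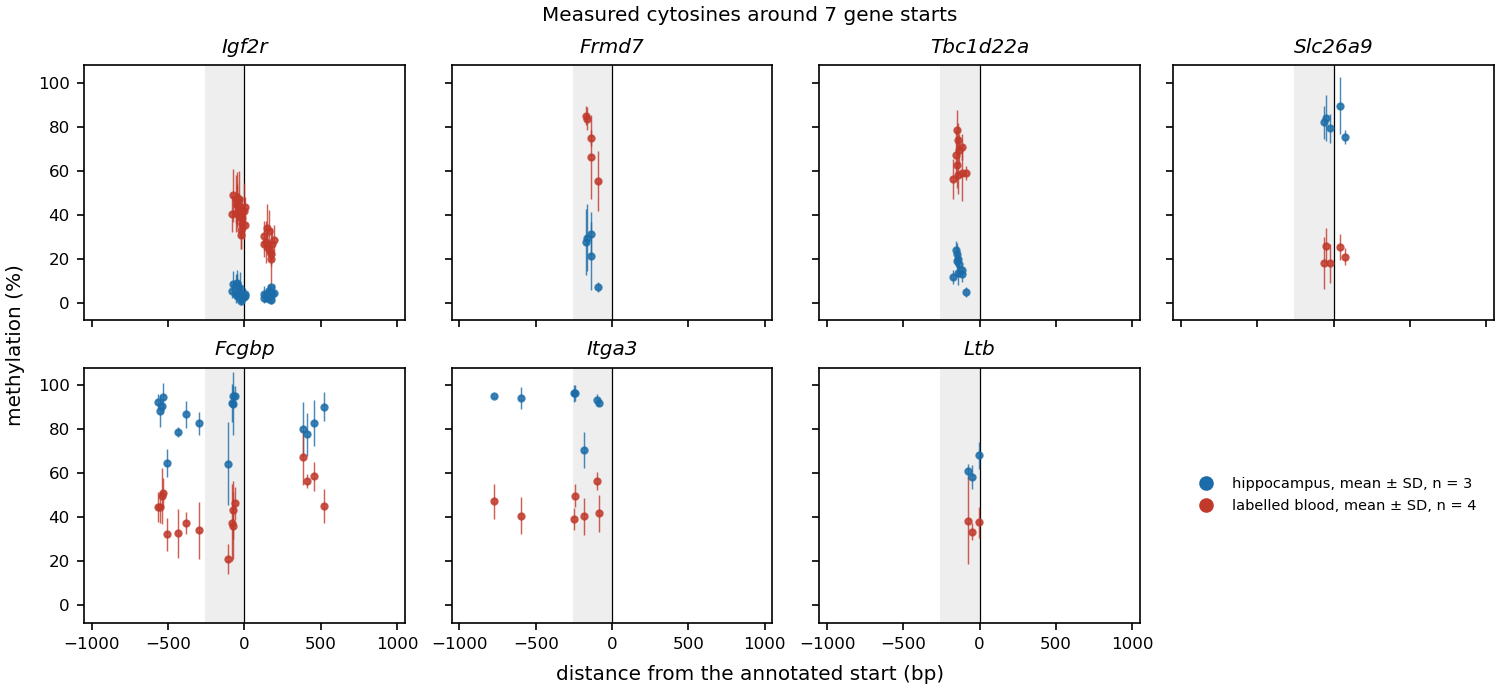
Methylation (%) of each measured cytosine within 1000 bp of 7 gene starts, as mean ± SD over the 3 hippocampus and the 4 labelled blood libraries, by distance from the start in the direction of transcription (bp), with the printed 250 bases shaded. At Igf2r the hippocampus cytosines lie near 0 and those of labelled blood between about 20% and 50%.

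Whole genes were compared by their mean over all shared cytosines from 1000 bp before to 1000 bp after the gene. Of 11311 genes tested, 615 (5.44%) were lower and 561 (4.96%) higher in hippocampus counting those past 10 points with an adjusted p under 0.05, and 597 and 554 without replicates 2 and 3 of labelled blood. The median difference over all genes tested was -0.353 points. Centring each library on its own mean left Syp, Calb2, Lyl1, Zbtb16, Cacna1s and Nnat, described below, without a call. They came just under 10 points, at -9.67, -9.75, -9.97, -9.84, -9.84 and -9.60 points in that order. The lists below are described by counts and medians and read against those shares.

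Among neuronal and synaptic genes, 3 of 30 tested were lower and 1 higher, with a median of -5.96 points, and 7 further measured genes lay outside the level range. Camk2a read 42.8%, 42.9% and 42.9% in hippocampus and 67.0%, 67.8%, 65.4% and 66.9% in labelled blood, a difference of -23.9 points (SE 0.723, adjusted p = 6.6e-07). Gria1, an AMPA receptor subunit, read 44.7% ± 2.13 against 65.2% ± 0.885. Syp, the synaptic vesicle protein synaptophysin, was at 1.83% against 12.3%, and its difference of -10.4 points was -8.08 without replicate 2 of labelled blood. Syn1, a synapsin gene on the X chromosome, was the 1 higher member, at 29.9%, 25.7% and 35.7% against 13.2%, 11.5%, 12.97% and 10.6%. In tiles the list stood out more: 50 of its 220 tiles (22.7%) were lower and 6 (2.73%) higher, beside 9.33% and 5.6% of all tiles. Bdnf (a neurotrophin), Neurod1 and Neurod2 (bHLH factors of neurons) were under 5% in both groups and were not tested.

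Other brain lists had few calls by gene mean. Ion channel genes, which set neuronal excitability (a list of potassium and sodium channels that also held calcium and HCN channels), had 5 lower and 0 higher of 32 tested. Scn3a, a sodium channel subunit, was at 46.1% ± 3.04 against 72.7% ± 3.85, and Kcnj10 (the astrocytic Kir4.1 channel) and Kcnip2 (a potassium channel interacting protein) differed by -13.9 and -12.9 points. Of 16 hippocampal and forebrain transcription factors tested, Prox1 alone was called, with 15.1%, 14.1% and 15.8% in hippocampus and 28.3%, 28.1%, 29.2% and 29.0% in labelled blood, and all 4 of its tested tiles were lower. Among transmitter genes Calb2 (calretinin) was lower by 10.5 points and Vip (a neuropeptide of interneurons) higher by 10.3 points, and both came under 10 points without hippocampus replicate 3 (-9.93 and 9.88 points), Calb2 also without replicate 3 of labelled blood (-9.94) and Vip also without replicate 1 (9.54). The tiles of these 3 lists were lower in 15.7%, 18% and 21.0%, beside 9.33% of all tiles. They were higher in 2.16%, 1% and 8.1%, beside 5.6% of all tiles.

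Glial markers were mixed by gene mean. In tiles, 21.2% of 33 astrocyte tiles were lower and 0% higher, beside 9.33% and 5.6% of all tiles. Of 49 oligodendrocyte tiles 14.3% were lower and 2.04% higher, and of 22 microglia and macrophage tiles 0% were called in either direction. Of 13 astrocyte genes tested, Cldn10 (a claudin) was lower, at 16.0% against 28.7%, and Aldh1l1, a folate enzyme used as an astrocyte marker, was higher, at 38.1% ± 2.32 against 17.9% ± 1.55. The start of Aldoc, the brain aldolase, was lower, at 41.6%, 42.6% and 32.8% against 68.1%, 75.2%, 75.2% and 77.4%. Gfap, the astrocyte filament protein, read 93.6% ± 4.73 against 89.9% ± 2.82 over 4 cytosines and was not called. Among 11 oligodendrocyte genes tested Mog, a myelin surface protein, was lower, at 84.5% against 95.6%, by 11.02 points and by 9.59 without hippocampus replicate 3. Mbp, the myelin basic protein, was at 34.7% ± 0.640 against 44.5% ± 0.790, a difference of -9.79 points that fell just short of 10 (-10.1 without hippocampus replicate 3), and 6 of its 16 tiles were lower. None of 12 microglia and macrophage genes and none of 16 endothelial and pericyte genes tested was called in either direction. Aif1, the microglial marker IBA1, had fewer than 3 shared cytosines.

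Leukocyte lists were likewise mixed. Itgal, the alpha chain of the leukocyte integrin LFA-1, was higher in hippocampus at 69.8%, 70.4% and 73.7% against 53.2%, 53.9%, 54.1% and 53.6% (17.6 points, SE 1.04, adjusted p = 9.4e-06). Selplg (the selectin ligand PSGL-1) and Ptpn6 (the phosphatase SHP-1) were higher by 14.5 and 12.1 points. Laptm5, a lysosomal protein of leukocytes, was lower by 12.6 points. Ptprc (CD45, the phosphatase on all leukocytes) was lower in hippocampus too, at 6.63%, 6.76% and 5.30% against 17.7%, 32.3%, 19.3% and 18.3%, while labelled LPS blood was at 1.69%. Vav1 (a signalling adaptor of blood cells, 87.8% against 82.9%) was not called. The median over the 23 genes was 3.502 points, and 12.3% of their tiles were higher and 6.15% lower.

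Lineage markers within blood gave single calls. Cd79b was the largest, at 46.7 points over 3 cytosines, while Blk, a B cell kinase, was lower by 15.2 points. Of 14 T cell genes tested, Cd8a (the CD8 coreceptor) and Ccr7 (a homing receptor) were higher by 18.8 and 12.1 points, and Cd3e had fewer than 3 shared cytosines. Among neutrophil genes Cebpe was higher by 23.1 points and Ctsg (cathepsin G) lower by 17.7 points. Cd300e, a monocyte receptor, and Trim10, an erythroid gene, were lower by 24.1 and 13.8 points. Of 23 haematopoietic transcription factors tested, Cebpe was higher and Lyl1, a bHLH factor of stem cells, lower by 10.7 points. Runx1, the master factor of definitive haematopoiesis, had equal gene means (32.5% in both groups over 243 cytosines), yet 4 of its 17 tiles were higher and 3 lower.

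Toll-like receptor and cytokine genes were called in 1 direction by gene mean, 4 of 23 higher and 0 lower, with a median of 1.20 points. Il10, an anti-inflammatory cytokine, read 51.7%, 42.8% and 51.6% in hippocampus and 18.5%, 18.6%, 27.1% and 28.3% in labelled blood. The chemokine genes Ccl3 and Ccl4 were called from the same 5 cytosines (87.9% against 74.4%) and so count as 1 signal, and without replicates 2 and 3 of labelled blood their difference fell to 9.44 points. P2rx7, an ATP receptor of myeloid cells, was called at 10.1 points and was at 8.72 points without hippocampus replicate 1 and at 9.75 and 9.69 without replicates 1 and 4 of labelled blood in turn.

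Hox genes, which set position along the body axis and are kept unmethylated under Polycomb proteins in many tissues, were lower in hippocampus in 7 of 17 tested and higher in 0, with a median of -7.06 points. The other 22 measured genes lay outside the level range. Hoxa3 read 3.13%, 2.78% and 2.70% in hippocampus and 21.6%, 22.8%, 23.5% and 19.8% in labelled blood over 313 cytosines (-19.05 points, SE 0.819, adjusted p = 2.7e-06). Hoxa5 and Hoxa6 differed by -18.1 and -15.2 points, but the annotated span of Hoxa3 reaches over its neighbours, so cytosines are shared among these 3 genes. Labelled LPS blood was at 46.9%, 68.1% and 52.1% at the 3 genes and cortex at 2.80%, 2.94% and 3.15%. On another cluster, Hoxb3 was at 2.40% ± 0.295 against 16.6% ± 0.944. In tiles, 11 of 66 were lower and 0 higher. Of 24 other developmental factors tested, Tbx1 (a T-box factor) was lower by 11.6 points, and the start of Zic4, a zinc-finger factor of the cerebellum and dorsal brain, was higher, at 42.4% ± 3.45 against 10.3% ± 3.41.

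Imprinted genes carry methylation on 1 parental copy at their control regions, so that intermediate levels are usual in any tissue. All 35 measured were tested, 7 were lower in hippocampus and 0 higher, with a median of -5.03 points. In tiles, 12 of 111 (10.8%) were lower and 4 (3.6%) higher, beside 9.33% and 5.6% of all tiles. Nnat, called lower by gene mean, was at -7.94 points without hippocampus replicate 3 and at -9.43 without replicate 1 of labelled blood. Meg3, a maternally expressed non-coding RNA, read 37.5%, 38.8% and 33.7% in hippocampus and 67.7%, 68.2%, 74.7% and 65.7% in labelled blood (-32.4 points, SE 2.25, adjusted p = 1.9e-05), and 2 of its annotated starts were lower as well, by 34.0 and 29.2 points, the latter by 22.7 without replicates 2 and 3 of labelled blood. Mcts2, a retrogene that lies inside a host gene, was at 35.1% ± 3.30 against 57.0% ± 7.16. Airn, a non-coding RNA that runs antisense across the start of Igf2r, was at 26.2% against 41.5%, and the 2 genes share cytosines. Peg3, Snrpn and H19 read 68.2% against 66.6%, 60.1% against 57.9% and 60.5% against 55.2%, and none was called. Whether these gene means cover the control regions of the genes was not checked. Kcnq1ot1, the antisense RNA of the Kcnq1 cluster, was lower by 12.6 points, but adjusted p rose to 0.0986 with the replicate number as a block and to 0.0609 and 0.0765 without hippocampus replicates 1 and 3 in turn, and the difference was -9.86 points without replicate 3 of labelled blood.

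Lists tied to the exposures held calls in both directions by gene mean. Of 22 cholinergic genes tested, 2 were higher and 1 lower, and 13.95% of their 43 tiles were lower and 6.98% higher, beside 9.33% and 5.6% of all tiles. The higher call of Chrna9 was lost without hippocampus replicate 3 (8.83 points). It was also lost without replicate 2 of labelled blood (9.39) and without replicates 2 and 3 (8.35). The start of Chrna9 read 57.2% in hippocampus against 72.5% and was not called. Colq, the collagen tail that anchors acetylcholinesterase, read 79.6%, 73.3% and 80.6% in hippocampus and 41.5%, 34.2%, 34.0% and 45.6% in labelled blood, and Chrna2, a nicotinic receptor subunit, was at 40.3% against 62.6%. Ache, the acetylcholinesterase gene itself, was at 2.31% and 2.91% and was not tested. Of 13 glucocorticoid response genes tested, Avpr1b (a vasopressin receptor of the pituitary) was higher by 23.3 points, and Hsd11b1 (the enzyme that regenerates glucocorticoid) and Zbtb16 (a zinc-finger factor) were lower by 12.8 and 10.6 points. The Hsd11b1 difference was -9.87 points without hippocampus replicate 2, and its adjusted p was 0.0674 without replicates 2 and 3 of labelled blood. Nr3c1, the glucocorticoid receptor gene, was at 2.19% and 2.11%, and Fkbp5, its cochaperone, at 6.94% ± 0.161 and 6.65% ± 0.395, with no call. Of the 49 tiles of the glucocorticoid list 9 (18.4%) were lower and 0 higher, beside 9.33% and 5.6% of all tiles.

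Among the genes of the methylation machinery, Dnmt3l, a cofactor of the germline methyltransferases, was the 1 called of 16 tested, at 87.8% ± 2.16 against 61.5% ± 5.02. Dnmt3a, a de novo methyltransferase, was at 14.2% against 17.6% and Tet2, a demethylating dioxygenase, at 19.99% against 20.9%, and both differences were under 10 points. Of 19 germline genes tested, Tdrd1 and Piwil2, of the piRNA pathway, were higher by 15.8 and 14.8 points, and Dazl, a germ cell RNA-binding protein, was at 39.8% and 41.0%. Of 32 ribosomal protein and housekeeping genes all were measured, 29 lay outside the level range and none of the other 3 was called.

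Lists of other tissues were added after the values had been seen, so they support nothing by themselves. Of 30 epithelial and keratinocyte genes tested, 6 were higher in hippocampus and 2 lower, with a median of 4.02 points. Of 8 tested starts 4 were higher, beside 5.41% of all starts tested. Among these starts Krt10, a keratin of upper epidermis, was higher by 26.7 points. It was higher by 24.4 points without replicate 4 of labelled blood and by 24.5 without replicates 1 and 4. Krt15, Krt5 and Rab25 (a small GTPase of epithelial recycling) differed by 49.4, 44.4 and 40.6 points, and Lamb3 (a laminin chain of the skin) and Evpl (envoplakin) were lower by 23.9 and 15.7 points. In tiles 21.7% of 106 were higher and 7.55% lower, beside 5.6% and 9.33% of all tiles. Of 8 kidney epithelium genes tested 4 were higher, led by Slc12a1 (the loop transporter of sodium, potassium and chloride) at 24.5 points. Slc12a3, also called higher, fell to 9.80 points without hippocampus replicate 1. It fell to 9.67 points without replicate 1 of labelled blood and to 8.63 without replicates 1 and 4. Of 15 fibroblast and adipocyte genes 2 were higher, Col3a1 (a collagen chain) by 32.3 points and Lep (leptin) by 15.6 points, and of 9 hepatocyte genes 1 was, Cyp8b1 (a bile acid hydroxylase) by 45.6 points. Of 14 skeletal muscle genes, Myh4 (a fast myosin) was lower by 36.3 points and Cacna1s (the muscle calcium channel) by 10.6 points, or 9.68 without hippocampus replicate 3 and 9.92 without replicate 3 of labelled blood.

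**Figure D5:**
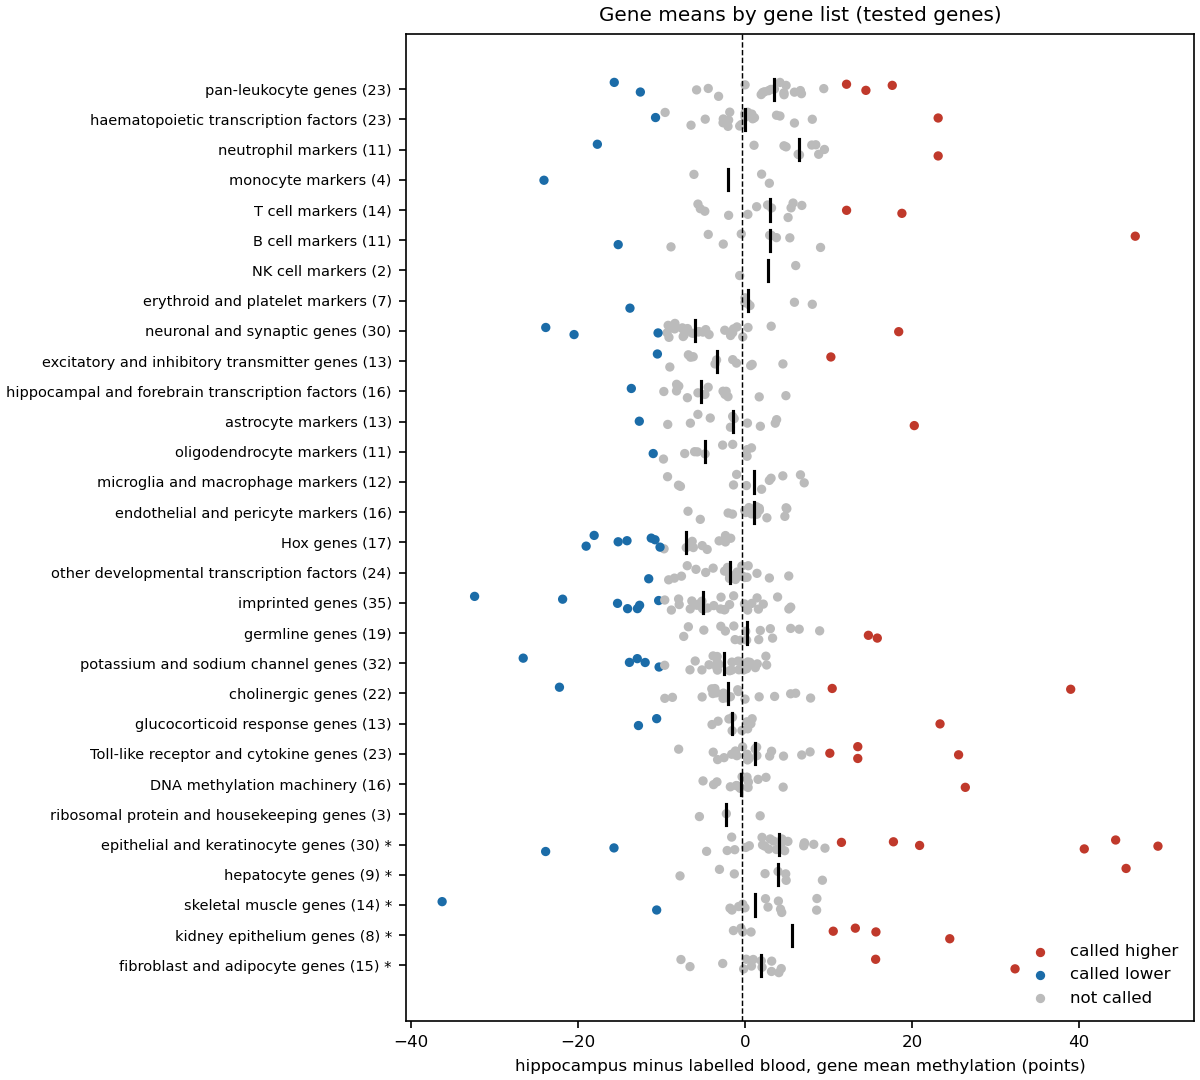
Difference in gene mean methylation (hippocampus minus labelled blood, points) of each tested gene, by list, with the number tested in brackets, the list median as a bar and the median of all genes tested, -0.353, as a dashed line. An asterisk marks the 5 lists added after the values were seen. The Hox and imprinted lists hold calls on the lower side only, as do the potassium and sodium channel list and some lists with fewer calls.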

How the data were processed

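The authors deposited 9 tables of percent methylation per cytosine, 7 of which were read here. Per the submitters' processing notes the tools were Bismark with Bowtie2, methylKit, SAMtools, FastQC and Trim Galore, on GRCm38/mm10. For versions, coverage minimum and normalisation the sources used here give nothing. Per the labels' protocols, libraries were made from 100 ng of DNA with the Ovation RRBS Methyl-Seq system. The deposited percent values come without read counts, so depth is unknown and no interval from counts is given. Saline values were identical (100%) across a tissue's tables wherever a cytosine recurred.

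Means over cytosines (at least 3) were taken per tile, gene and start, and features with a mid-level of 5 to 95% were fitted with limma 3.58.1 (lmFit and a trended eBayes, under R 4.3.3) on the percent scale, with no block, two-sided, with Benjamini-Hochberg adjustment over all features tested. For a simulation, 58025 tiles were drawn with independent normal noise, and changes were put into a small part of them. The fit recovered 91% of changes of 30 points and 99% of 45 points, with 2 false calls. Values of 1 per library had exact permutation tests. Gene spans and starts came from RefSeq GRCm38.p6. The text names, per direction, the 12 called tiles with the largest difference (at least 5 cytosines, groups apart, 1 per protein-coding gene, no placeholder names), up to 3 called members per list, the 3 longest runs (called neighbours within 3000 bp) and a fixed set of genes. Members and lists were chosen with earlier results of these data known. Alternatives changed cut-offs, scale, centring, features and libraries.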

Additional observations from a re-analysis of the deposited data

Results flagged for a closer look

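In 136 reported values the 4 libraries labelled blood were checked for a library far from the other 3 (Dixon's test at its 95% limit), and 3 stood out, where chance alone gives about 1 in 20. The share of shared cytosines over 80% was 21.6% in replicate 4 and 21.9% in the other 3. The Ptprc gene mean was 32.3% in replicate 2 and 17.7% to 19.3% in the others. Its difference was -15.7 points (adjusted p = 0.0061 in limma) and -12.2 points without replicate 2 (adjusted p = 2.3e-05). The Mbp gene mean was 45.7% in replicate 4 and 43.9% to 44.2% in the others. Its difference was -9.79 points and -9.40 points without replicate 4.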

How the results depend on the processing

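Of 174 alternative values of the main counts and measures, 157 stayed within 1.5 times the count or within the spread between libraries. Only the measures have a sign that could change, and none of them did. At 10 points, 57484 cytosines were higher and 75381 lower in hippocampus, 9560 and 12001 tiles, and 294 and 272 starts, while at 25 points 101 genes were higher and 87 lower. Fewer features entered with at least 5 cytosines a tile (1478 higher and 2835 lower of 29664), with the mean of both strands of a CpG (3075 and 5081 of 49933) and with cytosines near either gene end (399 genes lower of 3685). With each tissue over its own table, which compares different cytosines, mean methylation differed by -7.78 points, the share under 20% by 9.57, that from 20 to 80% by -3.23 and that over 80% by -6.33. Centring each library on its own mean, a shift of 0.765 points between tissues, made 617 genes higher and 549 lower, the opposite order. Leaving out each library gave 26968 to 28066 cytosines higher and 42376 to 46287 lower, 3192 to 3354 and 5294 to 5517 tiles, 537 to 574 and 601 to 631 genes, and 91 to 101 and 78 to 84 starts. The measures then ranged from -0.833 to -0.677 points (mean), 1.23 to 1.42 (under 20%), -1.22 to -1.04 (20 to 80%), -0.314 to -0.0641 (over 80%), -9.75 to -7.20 (X tiles) and -3.71 to -2.94 (autosomal tiles). With the replicate block 3249 tiles were higher and 5413 lower, and 557 and 610 genes. Correlations of deviations between same-numbered libraries were -0.0094 to 0.0071, which cannot tell whether they came from the same mouse. Of 86 gene means followed, 17 lost their call in at least 1 alternative, mostly by falling under 10 points, and 1 gained it. Leaving out labelled blood replicates 2 and 3, replicates 1 and 4, or cytosines at which these pairs differed was chosen after seeing the data. The coverage minimum could not be varied, since depth is unknown. Results on labelled blood describe these 4 libraries.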
